A study of Mus musculus with 9 samples.

Results

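Liver tumours of mice were compared directly with fetal mouse liver, using the 3 arrays titled for each tissue, 6 of the 9 arrays in the series. The 3 adult liver arrays took no part, except in 1 alternative fit that used all 9 arrays. The fetal livers came from embryos of day 17.5, and their sex is not given. The tumours came from males aged 1 year that had been given diethylnitrosamine (DEN), which damages liver DNA and leads to tumours there. They had been examined by haematoxylin and eosin staining. No genetic change was named for either group, and strain, litter and animal are not named. Age, DEN exposure and tumour tissue therefore differ together and cannot be told apart. Replicates are called independent, so p-values measure only the spread between these samples. Total RNA had been labelled with the dye Cy3 and hybridised to a 1-colour Agilent array for long non-coding and protein-coding RNAs. A probe entered the comparison if it was marked well above background on all 3 arrays of at least 1 of the groups. Of 60915 probes, 30448 met that rule, and 30093 of these had at least 2 usable arrays per group after spots marked as outliers were left out.

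Fetal liver is both a growing liver and the main site of blood formation before birth, so hepatoblasts share the organ with many dividing erythroid cells. A DEN tumour of an old male arises in a liver that has matured, where hepatocytes divide rarely. RNAs that are high in the fetal organ, silent in the adult and high again in a tumour are called oncofetal, with alpha-fetoprotein as the textbook example. A direct comparison of tumour and fetus asks where both tissues part, which is the other side of that question. Of 15 oncofetal genes listed for this comparison, among them Afp, H19, Igf2, Dlk1 and Gpc3, 0 had a probe that the files pair with a gene name. The same held for 9 hepatocyte, 6 leukocyte, 4 endothelial, 4 stellate and 4 cholangiocyte markers, so the labelled tissues could not be checked against their defining genes. In bulk tissue, fewer cells of a type and less RNA per cell cannot be told apart.

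The arrays fell into 2 scans, per the file headers. The 3 fetal arrays and liver cancer 1 were in the first, and liver cancer 2 and 3 were in the second, which held no fetal array. Between 43.9% and 55.0% of probes were well above background on the arrays of the first scan, against 69.4% and 68.0% on liver cancer 2 and 3. Before scaling, the 75th percentile of the processed signal ranged from 87.8 to 188 for the first scan, and the second gave 409 and 355. Negative control spots carried the mark at a rate of 0.333% to 1% in the first scan, against 7% and 3.33% on liver cancer 2 and 3. The median SD of a probe was 0.18 among fetal arrays and 0.45 among liver cancer arrays, in log2 units. Liver cancer 2 and 3 differed from each other by a median of 0.23, and liver cancer 1 from them by 0.67 and 0.65. The difference from fetal liver is therefore also given for liver cancer 1 alone, against the fetal arrays of its own scan. There it is a single array, assumed to vary like the others. Scan and tumour cannot be told apart within the liver cancer group.

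All levels below are log2 signals relative to the 75th percentile of the same array, and differences are liver cancer minus fetal liver on that scale. A probe was called at a limma adjusted p below 0.05 and a difference of at least 1, which is 2-fold. By that rule 13581 of 30093 probes (45.1%) were called, 6363 of them (21.1%) above and 7218 (24.0%) below the fetal level. The groups did not overlap for 18940 probes (62.9%), of which 9417 (31.3%) were higher and 9523 (31.6%) lower. Large differences ran both ways in similar numbers: 3136 probes were called higher and 3757 lower at 4-fold or more, and 813 and 837 at 16-fold or more. Within the first scan 13241 of 29729 probes (44.5%) were called, 6540 higher (22.0%) and 6701 lower (22.5%). With scan as a block, a fit that likewise takes the difference from liver cancer 1, 12980 of 30093 (43.1%) were called.

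The probes that could be named came from a small set of metabolic, housekeeping and cell surface genes, 15 in all, each spotted 20 times and well above background on all 6 arrays. Against the 45.1% of all probes, 11 of the 15 were called: Gk, Ldhal6b and B2m were higher in liver cancer, and Hsp90ab1, Nono, Tbp, Tuba1b, G6pd2, Tfrc, Rpl13a and Hprt were lower. Their median difference was -1.11, beside -0.01 over all tested probes. The groups did not overlap for 12 of the 15, beside 62.9% of all tested probes. Within the first scan the median difference of the 15 was -0.51, beside 0.17 over all tested probes. Of the 11, Tuba1b, Rpl13a and Hprt were below 2-fold there, at -0.97, -0.85 and -0.51. With normexp background correction the differences were 2.15 for Gk, 1.84 for B2m, -1.24 for G6pd2 and -1.12 for Tfrc, all of them still called. Gapdh, Ppia and Gusb were not called, and Actb fell just short of 2-fold.

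**Figure D1:**
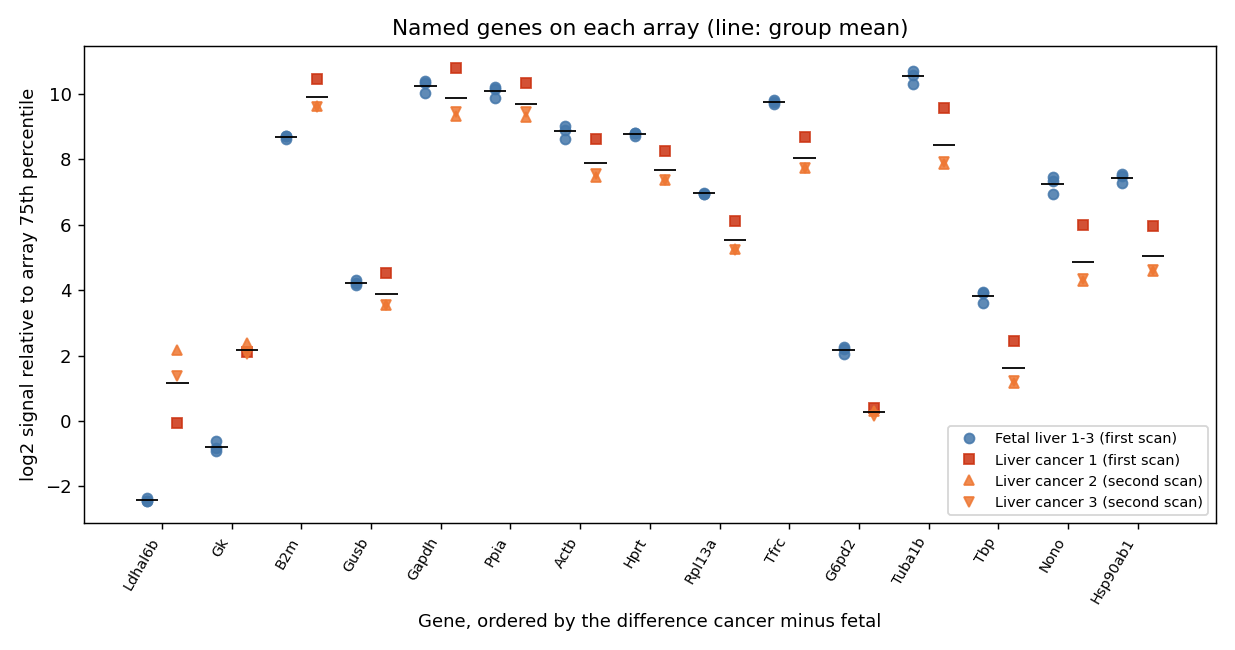
Log2 signal relative to the array's 75th percentile (vertical axis) for each of the 15 named genes (horizontal axis, ordered by the difference) on each array. Circles are fetal arrays, the square is liver cancer 1, triangles are liver cancer 2 and 3, and lines are group means. Gk and G6pd2 sit at 1 level on all 3 liver cancer arrays, whereas for most other genes the square lies above the triangles.

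Glycerol kinase (Gk) phosphorylates glycerol, the step that lets liver feed it into glucose or lipid synthesis. Its level was -0.82, -0.60 and -0.91 in fetal liver and 2.10, 2.37 and 2.06 in liver cancer. All 3 tumours were thus well above all 3 fetal livers, and the tumours differed little among themselves. The difference of 2.96 ± 0.21 (SE, n = 3 and 3) is 7.76-fold, with a limma adjusted p of 3.7e-05, and it was 2.88 within the first scan. Liver cancer 2 and 3 differed from liver cancer 1 by 0.11 for this gene (limma adjusted p = 0.741).

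Ldhal6b, a lactate dehydrogenase A-like gene whose product belongs to the family that interconverts pyruvate and lactate, was at -2.34, -2.43 and -2.44 in fetal liver. In liver cancer it was at -0.05, 2.18 and 1.37, with the lowest value on liver cancer 1. The groups did not overlap, and the tumours spread over more than 2 log2 units while the fetal livers were close together. Ldhal6b rose by 3.57 ± 0.52, or 11.9-fold (limma adjusted p = 0.000982). Its fetal levels were near the lowest signals well above background on those arrays, which were -2.57, -3.27 and -2.69. Within the first scan the rise was 2.35, and liver cancer 2 and 3 were above liver cancer 1 by 1.83 (limma adjusted p = 0.0187). With normexp, which shrinks differences of dim probes, the rise was 1.84. The 20 spots of the probe had a median SD of 0.22 on an array, and 1.22 on the array where they varied most.

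G6pd2 moved the other way. It is a copy of the gene for glucose 6-phosphate dehydrogenase, the entry enzyme of the pentose phosphate pathway, and its signal was not separated here from that of its X-linked relative. Fetal levels were 2.19, 2.05 and 2.25, and liver cancer levels were 0.39, 0.30 and 0.16. It fell by 1.88 ± 0.20 (3.68-fold, limma adjusted p = 0.000208), and by 1.77 within the first scan. The 3 tumours were close together and all below the fetal livers. Of 8 genes listed for carbohydrate and glycerol metabolism, 5 had a named probe, with 2 higher, 1 lower and Gapdh and Gusb not called. Of all tested probes, 21.1% were called higher and 24.0% lower.

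B2m encodes beta-2 microglobulin, the light chain of MHC class I molecules, which interferon induces. It was at 8.70, 8.62 and 8.70 in fetal liver and at 10.45, 9.62 and 9.60 in liver cancer. The rise of 1.21 ± 0.28 (2.32-fold, limma adjusted p = 0.00907) was largest on liver cancer 1, where it was 1.78. Without liver cancer 1 it was 0.93, below 2-fold, with a limma adjusted p of 0.0014. Scaled to the array median it was 0.99 with a limma adjusted p of 0.0732.

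Tfrc, the transferrin receptor through which dividing and erythroid cells take up iron, was the only named erythroid marker of 9 listed. Its levels were 9.75, 9.68 and 9.79 in fetal liver and 8.67, 7.73 and 7.73 in liver cancer. It fell by 1.70 ± 0.30 (3.24-fold, limma adjusted p = 0.0025), and by 1.07 within the first scan, where it was still called. Tfrc thus moved opposite to B2m, the other cell surface gene of the list.

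Of 8 genes listed for growth and protein synthesis, 6 were called lower in liver cancer and 0 higher, with a median difference of -1.76. Over all tested probes 24.0% were called lower. The list was chosen with earlier results of these data known. Within the first scan the differences were -1.49 for Hsp90ab1, -1.36 for Tbp, -1.25 for Nono and -0.97 for Tuba1b. They were -0.85 for Rpl13a, -0.51 for Hprt, -0.24 for Actb and 0.24 for Ppia. Tuba1b, an alpha-tubulin, was at 10.57, 10.31 and 10.70 in fetal liver and at 9.55, 7.84 and 7.92 in liver cancer. It fell by 2.09 ± 0.46 (4.25-fold, limma adjusted p = 0.00726), but liver cancer 1 alone was lower by 0.97 and not called. Most of the difference thus came from the second-scan tumours, which were below liver cancer 1 by 1.67 (limma adjusted p = 0.0122).

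Hsp90ab1, the constitutive HSP90 chaperone, was at 7.49, 7.27 and 7.53 in fetal liver and at 5.94, 4.58 and 4.60 in liver cancer. It fell by 2.39 ± 0.39 (5.24-fold, limma adjusted p = 0.0017), and by 1.49 within the first scan. Hsp90ab1 and Nono had the largest falls among the named genes. Nono, an RNA-binding protein of nuclear paraspeckles, was at 7.34, 6.93 and 7.46 against 5.99, 4.27 and 4.33. It fell by 2.38 ± 0.48 (limma adjusted p = 0.00449), and by 1.25 within the first scan. Tbp, the TATA-binding protein that nucleates transcription complexes, was at 3.90, 3.62 and 3.93 against 2.46, 1.16 and 1.21. It fell by 2.21 ± 0.37 (limma adjusted p = 0.00206), and by 1.36 within the first scan. For Hsp90ab1, Nono and Tbp all 3 tumours were below all 3 fetal livers, with liver cancer 1 the nearest to them.

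Rpl13a, a protein of the large ribosomal subunit, fell by 1.43 ± 0.29 (limma adjusted p = 0.00455). Its difference was -0.85 within the first scan and -0.79 with normexp background correction, neither of them called. Hprt, an enzyme of purine salvage, fell by 1.11 ± 0.29 (limma adjusted p = 0.0152), and was at -0.51 within the first scan. The Hprt call was lost under 8 of 19 other settings, among them leaving out fetal liver 1 (limma adjusted p = 0.0545), fetal liver 3 (0.0556), liver cancer 2 or liver cancer 3. Cytoplasmic actin (Actb) was at 8.90, 8.62 and 9.01 in fetal liver and 8.61, 7.44 and 7.55 in liver cancer. Its difference of -0.98 (limma adjusted p = 0.0463) did not reach 2-fold, whereas without liver cancer 1 it was -1.35 and called.

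The remaining genes are common reference genes, and their tumour arrays lay on both sides of the fetal ones. Gapdh, a glycolytic enzyme, was at 10.32, 10.03 and 10.38 in fetal liver and at 10.79, 9.33 and 9.43 in liver cancer. Its difference was -0.39 ± 0.41 (limma adjusted p = 0.453) over the 6 arrays, but 0.55 within the first scan and 0.23 with normexp. The prolyl isomerase Ppia gave -0.39 ± 0.31 (limma adjusted p = 0.325), turning to 0.24 within the first scan and 0.25 with normexp. The lysosomal enzyme Gusb gave -0.34 ± 0.31 (limma adjusted p = 0.38), turning to 0.30 within the first scan and 0.24 with normexp. Across all 15 genes, liver cancer 2 and 3 were both below liver cancer 1 for 13. Their mean was above liver cancer 1 for Gk and Ldhal6b, by 0.11 and 1.83. Over all probes with 3 values liver cancer 1 was the highest tumour for 54.8%. The pair differed from liver cancer 1 by a median of -0.29 over all probes.

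Promoters are shown for 4 genes that differ in direction: Gk and B2m, which were higher in liver cancer, and Tfrc and Tuba1b, which were lower over all 6 arrays. The genes were chosen after their values were seen. Each window holds the 250 bases before the RefSeq start of the gene in build GRCm38.p6, on the gene's strand, 5′ to 3′, and capitals mark matches on either strand to 5 motifs. The motifs are TATAAA for the TATA box, CCAAT for the NF-Y site, GGGCGG for the Sp1 site known as the GC box, CACGTG for the E-box and AANNGAAA for sites of interferon regulatory factors, where N is any base. Among 32851 promoter windows of that length, 12.4%, 33.8%, 32.7%, 6.02% and 21.3% held them in that order. The Gk window lies at chrX:85776820-85777069 on the minus strand, that of B2m at chr2:122147437-122147686 on the plus strand, that of Tfrc at chr16:32608646-32608895 on the plus strand and that of Tuba1b at chr15:98934391-98934640 on the minus strand.
Gk: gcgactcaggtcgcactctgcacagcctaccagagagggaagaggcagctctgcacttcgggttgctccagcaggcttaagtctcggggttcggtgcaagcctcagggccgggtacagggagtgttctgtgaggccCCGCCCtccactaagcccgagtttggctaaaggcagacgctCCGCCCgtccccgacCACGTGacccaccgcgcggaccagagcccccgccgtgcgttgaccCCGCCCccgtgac
B2m: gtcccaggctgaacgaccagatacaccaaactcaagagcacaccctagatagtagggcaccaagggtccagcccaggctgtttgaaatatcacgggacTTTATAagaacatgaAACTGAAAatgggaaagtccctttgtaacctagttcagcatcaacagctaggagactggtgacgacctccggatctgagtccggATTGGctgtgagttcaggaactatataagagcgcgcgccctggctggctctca
Tfrc: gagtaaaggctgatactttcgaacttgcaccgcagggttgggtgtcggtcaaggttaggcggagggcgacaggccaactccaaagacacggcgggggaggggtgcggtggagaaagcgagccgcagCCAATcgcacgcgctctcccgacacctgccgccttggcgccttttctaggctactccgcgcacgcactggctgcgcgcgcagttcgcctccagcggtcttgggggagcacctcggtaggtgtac
Tuba1b: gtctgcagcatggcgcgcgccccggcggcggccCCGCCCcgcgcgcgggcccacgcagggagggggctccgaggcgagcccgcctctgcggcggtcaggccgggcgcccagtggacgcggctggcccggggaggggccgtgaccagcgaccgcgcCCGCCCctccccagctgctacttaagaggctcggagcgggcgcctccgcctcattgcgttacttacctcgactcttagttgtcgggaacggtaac

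The Gk window held 3 GC boxes and 1 E-box, and 67.2% of its bases were G or C, against a median of 52.4% over all windows. The B2m window held 1 match to TATAAA, on the opposite strand (TTTATA), 1 to CCAAT and 1 to AANNGAAA, with 50.8% G or C. A stretch nearer the start of B2m, tatataag, does not match TATAAA and is unmarked. The Tfrc window held 1 CCAAT box (64.8% G or C), and the Tuba1b window 2 GC boxes (75.6% G or C). GC boxes thus stood before a gene that was higher (Gk) and before one that was lower (Tuba1b). These matches are descriptions of the sequence and say nothing of binding.

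The array also carries 12 control probes for GAPDH and PGK1, named for mouse, human or rat and ending in _3 or _5. The files do not state what the endings mean, and such names usually refer to the 3′ and 5′ parts of a transcript. In the 4 pairs named for mouse and human, the probe ending in _3 exceeded its _5 partner by more in every tumour than in any fetal liver. In the rat-named pairs the probe ending in _3 lay below its partner on every array. Fetal and liver cancer means were 3.13 and 3.24 for Rat-GAPDH_3, and 6.55 and 4.72 for Rat-GAPDH_5. For Rat-PGK1_3 they were -4.08 and -3.06, and for Rat-PGK1_5 3.17 and 0.75. For Mouse-PGK1 (phosphoglycerate kinase, a glycolytic enzyme) the log2 ratio of _3 to _5 was 4.83, 4.68 and 4.71 in fetal liver and 6.49, 6.48 and 6.61 in liver cancer. For Mouse-GAPDH it was 0.78, 0.72 and 0.77 against 1.60, 1.29 and 1.33. The differences of 1.79 and 0.65 each had an exact two-sided permutation p of 0.1, the smallest that 3 arrays against 3 allow.

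The paired control probes thus differed in their size of change. Mouse-PGK1_3 was lower in liver cancer by 0.65 and overlapped between the groups, whereas Mouse-PGK1_5 was lower by 2.44 with no overlap. Mouse-GAPDH_3 differed by -0.40, close to the -0.39 of the named Gapdh probe, and Mouse-GAPDH_5 by -1.05. For the Mouse-PGK1 ratio liver cancer 1 (6.49) lay between liver cancer 2 and 3. In the other 3 pairs it stood apart from them, above for Mouse-GAPDH and below for Human-PGK1 (6.80 against 7.35 and 7.28) and Human-GAPDH (3.59 against 4.55 and 4.49). The part of these control probe differences in the falls of the named genes was not tested.

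**Figure D2:**
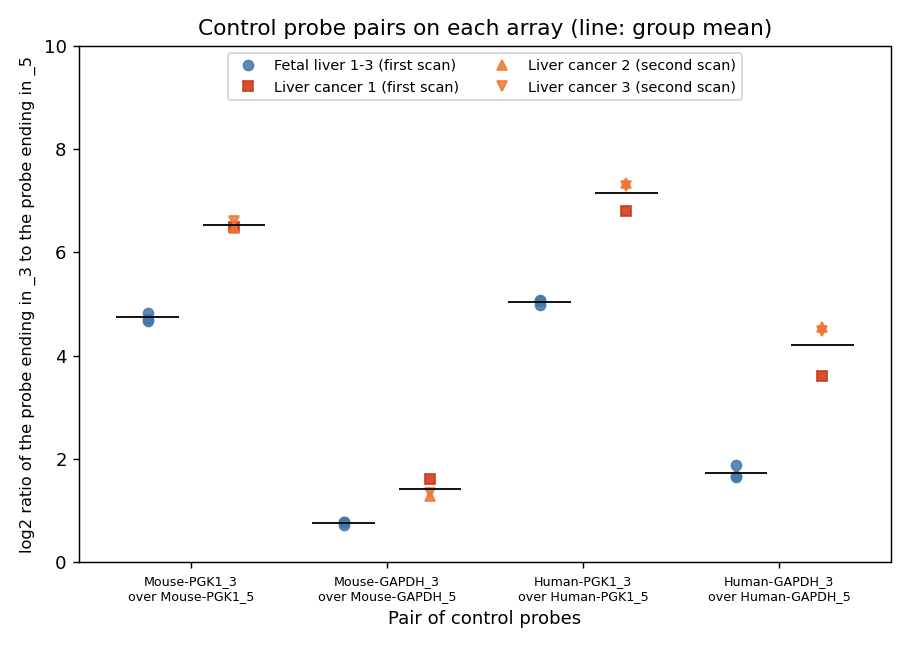
Log2 ratio of the control probe ending in _3 to its partner ending in _5 (vertical axis) for 4 pairs (horizontal axis) on each array. Circles are fetal arrays, the square is liver cancer 1, triangles are liver cancer 2 and 3, and lines are group means. In all 4 pairs every liver cancer array lies above every fetal array.

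Long intergenic non-coding RNAs (lincRNAs) are transcribed between protein-coding genes and often show tissue-restricted, low expression. The array holds 1836 probes with lincRNA names, and 385 of these (21.0%) were tested, beside 49.4% of all probes. Of the 385, 94 (24.4%) were called higher in liver cancer and 19 (4.94%) lower, where the shares over all tested probes were 21.1% and 24.0%. The share called higher was thus close to that of all probes, and the share called lower was smaller. The median difference of the 385 probes was 0.41, beside -0.01 for all probes. The medians were 0.43, 0.42 and 0.42 for liver cancer 1, 2 and 3, beside 0.17, -0.12 and -0.09 for all probes. The 3 tumours were thus alike in the lincRNA median, but not in its distance from the median of all probes. Within the first scan 86 were higher (22.7%) and 18 lower (4.75%), beside 22.0% and 22.5% of all probes.

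By kind of lincRNA name the counts were as follows, and differences between the kinds were not tested. Among human-named probes 54 of 218 were higher and 11 lower, among mouse-named probes 33 of 139 and 7, and among probes named for mm9 lincRNA exons 7 of 28 and 1. Within the first scan 23.8%, 22.5% and 14.8% of the 3 kinds were called higher, the last being 4 of 27. By contrast, 16.6% of 199 tested probes of the array maker's UP series were called higher and 29.6% lower. Since lincRNA probes are dim, the split was also taken by level. In the dimmer 5 of 10 classes of mean level, the lincRNA shares were 25.9% higher and 4.78% lower, beside 22.1% and 24.7% of all probes. In the brighter classes they were 21.6% and 5.22%, beside 20.2% and 23.2%. Among the 288 lincRNA-named probes above background on all 6 arrays, 52 (18.1%) were higher and 11 (3.82%) lower, beside 17.9% and 19.7% of the 23175 such probes in all. The median depends on the scaling: relative to the array median it was 0.18, beside -0.23 for all probes, and with normexp it was 0.05 beside -0.15.

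**Figure D3:**
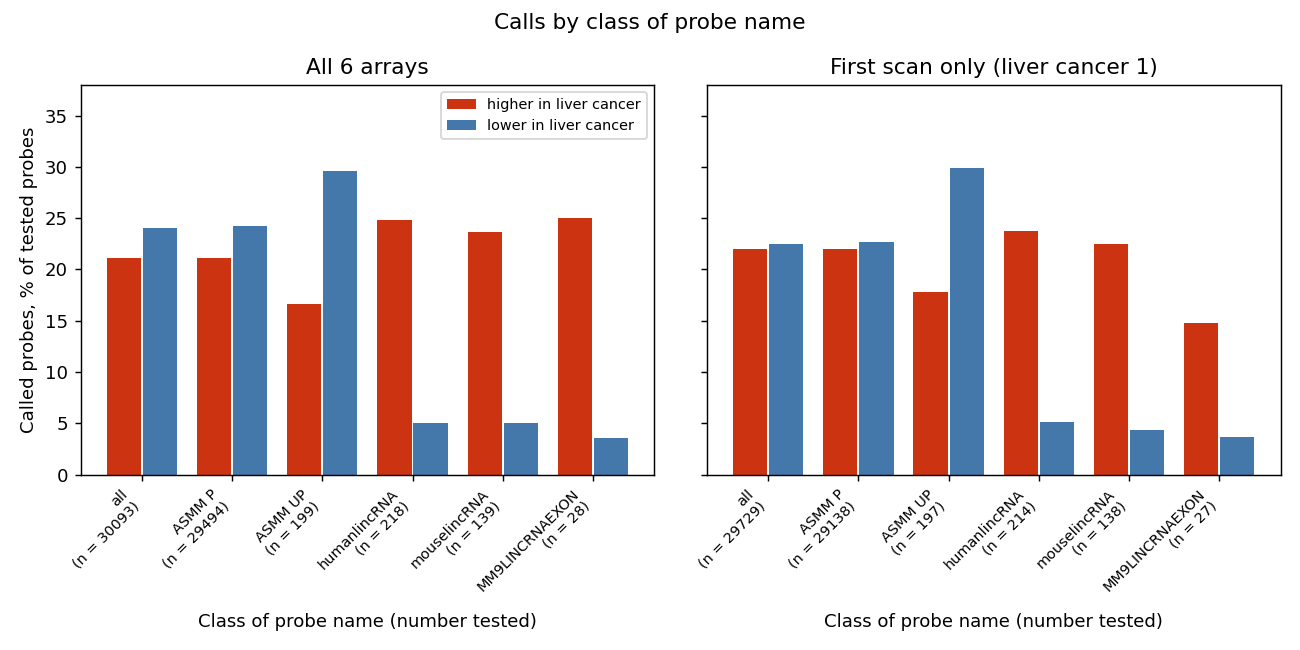
Percentage of tested probes called higher (red) or lower (blue) in liver cancer (vertical axis) by class of probe name (horizontal axis, number tested in brackets), over all 6 arrays on the left and within the first scan on the right. The 3 lincRNA classes show 3.57% to 5.05% lower on the left, against 24.0% of all probes.

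The human-named lincRNA probe with the largest rise among those above background everywhere was humanlincRNA0691+_P1. Its levels were -2.14, -1.56 and -1.73 in fetal liver and 2.67, 3.14 and 3.24 in liver cancer. The groups lay far apart, at a difference of 4.83 ± 0.26 or 28.4-fold (limma adjusted p = 1.2e-05). The next were humanlincRNA1172+_P1 (3.41), humanlincRNA0324-_P1 (2.60), humanlincRNA1016+_P1 (2.36) and humanlincRNA2163+_P1 (2.31). For humanlincRNA0324-_P1 liver cancer 1 was at 8.94, above the 7.11 and 7.45 of the other tumours, and the difference within the first scan was 3.70.

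The largest fall was at humanlincRNA0970-_P1, which was at 4.22, 4.54 and 4.16 in fetal liver and at -1.34, 0.92 and -0.30 in liver cancer. It fell by 4.55 ± 0.53 (limma adjusted p = 0.000319). humanlincRNA1151+_P1 showed the most even fall, from 1.91, 1.74 and 1.80 to -1.68, -1.68 and -1.56. Its difference was -3.45 ± 0.19 (limma adjusted p = 1.3e-05). The other 3 falls were smaller and less stable. humanlincRNA1003-_P1 fell by 1.56 over the 6 arrays but was at -0.23 on liver cancer 1, where it was not called. humanlincRNA1145+_P1 fell by 1.38 and was at -0.61 within the first scan, also not called, and humanlincRNA1921+_P1 fell by 1.18 (-1.35 within the first scan). The calls of humanlincRNA1003-_P1 and humanlincRNA1145+_P1 were also lost when any 1 fetal array was left out (limma adjusted p of 0.0736 to 0.112) or when liver cancer 3 was.

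Among mouse-named probes, mouselincRNA0706+_P1 was at 5.82, 5.52 and 5.96 in fetal liver and at 8.43, 8.28 and 8.40 in liver cancer. It rose by 2.60 ± 0.21 (limma adjusted p = 6.6e-05), and by 2.66 within the first scan. The 3 tumours were nearly level for it, as they were for mouselincRNA0453+_P1, at 6.47, 6.41 and 6.39 (difference 2.21). mouselincRNA0807-_P1 rose by 2.60 and mouselincRNA0561-_P1 by 2.00 (1.09 within the first scan and 1.03 with normexp). mouselincRNA0013-_P1 rose by 2.20, with 3.73 on liver cancer 1 against 1.004 and 1.32 on the others, and its call was lost when any 1 fetal array was left out (limma adjusted p of 0.066 to 0.0866) or with array median scaling (0.0679).

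mouselincRNA1103-_P1 had the largest fall of the mouse-named probes, from 2.95, 2.62 and 2.76 to -0.24, -0.54 and -2.08. Its difference was -3.73 ± 0.47 (limma adjusted p = 0.000471). mouselincRNA0052-_P1 fell by 2.62 over the 6 arrays and by 1.79 within the first scan. Both were below all fetal values in every tumour. mouselincRNA0078+_P1 fell by 1.29, mouselincRNA1377-_P1 by 1.25 and mouselincRNA1400-_P1 by 1.17. The call of mouselincRNA1377-_P1 was lost within the first scan (-0.71, limma adjusted p = 0.0686), without any 1 fetal array and without liver cancer 3 (-0.83), and that of mouselincRNA0078+_P1 without fetal liver 1 (limma adjusted p = 0.0503) or 3 (0.0553) and without liver cancer 3 (-0.94, below 2-fold).

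Of the probes named for mm9 lincRNA exons, MM9LINCRNAEXON11939-_P1 rose from 1.56, 2.09 and 1.55 to 6.21 and 6.13 on liver cancer 2 and 3, and its spot on liver cancer 1 was left out as an outlier. MM9LINCRNAEXON10569-_P1 was at 3.99, 3.51 and 4.00 in fetal liver and at 8.43, 8.10 and 4.10 in liver cancer. Liver cancer 3 was thus near the fetal level while the other tumours were far above it. Its limma adjusted p of 0.0444 was lost when any 1 of the fetal arrays, liver cancer 1 or liver cancer 2 was left out (0.0946 to 0.124). MM9LINCRNAEXON11712+_P1 rose by 2.07 (1.04 with normexp), MM9LINCRNAEXON10136+_P1 by 1.29 and MM9LINCRNAEXON10664+_P1 by 1.28 (0.99 within the first scan, below 2-fold). Of the 19 probes of this class above background on all 6 arrays, 6 were called higher and 0 lower by limma, beside 17.9% and 19.7% of all such probes. With normexp, humanlincRNA1145+_P1 (-0.865), humanlincRNA1921+_P1 (-0.71), mouselincRNA0078+_P1 (-0.85), mouselincRNA1377-_P1 (-0.98) and mouselincRNA1400-_P1 (-0.83) fell below 2-fold and were not called. So did MM9LINCRNAEXON10136+_P1, at 0.57.

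Most of the array (59064 probes under the maker's own identifiers) has no gene name in the files, and its members are given by identifier. The largest rise with all 6 arrays above background was at ASMM10P051166, from -1.69, -1.61 and -1.81 to 9.70, 9.24 and 9.24. That is a difference of 11.10 ± 0.22 (limma adjusted p = 3.2e-06), with 11.41 within the first scan. The next 4 were ASMM10P043104 (10.95), ASMM10P028947 (10.01), ASMM10P006584 (9.80) and ASMM10P050400 (9.75). The largest fall was at ASMM10P036632, with 8.99 and 8.67 on fetal liver 1 and 2 (fetal liver 3 left out as an outlier) and -0.94, -3.04 and -1.24 in liver cancer. The next falls were at ASMM10P047627 (-10.28), ASMM10P031149 (-9.59), ASMM10P004647 (-9.42) and ASMM10P014370 (-8.79). ASMM10P004647 was the most even of these, at 8.32, 8.33 and 8.30 against -1.03, -1.005 and -1.27.

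Some RNAs were above background in 1 tissue only. On all 3 liver cancer arrays and on 0 fetal arrays 1139 probes (3.78% of those tested) were well above background, and 548 (1.82%) on all 3 fetal arrays and on 0 liver cancer arrays. With liver cancer 1 as the only tumour, 1223 probes (4.05% of 30223) were above background there and on 0 fetal arrays. Another 3854 (12.8%) were above background on all 3 fetal arrays and not there. Each of these rules looks at 1 tumour array instead of 3 and is looser, so the counts are not like for like. The marks chose these probes, so their separation is a description. For such a probe the fold is a bound: the mean of the bright group over the mean, per dim array, of the higher of its own signal and the lowest signal well above background there. The bound reached 2-fold for 784 of the 1139 and 8-fold for 216, and for 546 and 153 of the 548. With liver cancer 1 in place of the 3 tumours, the bound reached 2-fold for 836 of 1138 (73.5%) and 298 of 548 (54.4%).

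ASMM10P028945 was at 7.43, 7.29 and 7.39 in liver cancer while 0 of 3 fetal arrays showed it above background, which makes it at least 1186-fold higher (at least 1234-fold on liver cancer 1). ASMM10P050382 followed at 5.74, 7.57 and 7.65, at least 909-fold higher over the 3 tumours and at least 382-fold higher on liver cancer 1. ASMM10P052089, ASMM10P050398 and ASMM10P014682 were at least 430-fold, 382-fold and 370-fold higher, and at least 682-fold, 394-fold and 187-fold higher on liver cancer 1. On the fetal side ASMM10P048311 was at 5.83, 5.72 and 6.08 and at least 690-fold higher than in liver cancer (at least 319-fold against liver cancer 1). ASMM10P001388, ASMM10P046940, ASMM10P004775 and ASMM10P034309 had fetal-side bounds of 604-fold, 322-fold, 256-fold and 215-fold, and of 279-fold, 149-fold, 118-fold and 99.5-fold against liver cancer 1. These bounds hold for the processed signals: with normexp the log2 differences of the 10 probes were smaller in size, at 7.93 for ASMM10P028945 and -6.96 for ASMM10P048311. The tumours of the second scan allow larger bounds on this side, because their lowest signals above background were -4.26 and -3.96 after scaling, against -2.44 on liver cancer 1.

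**Figure D4:**
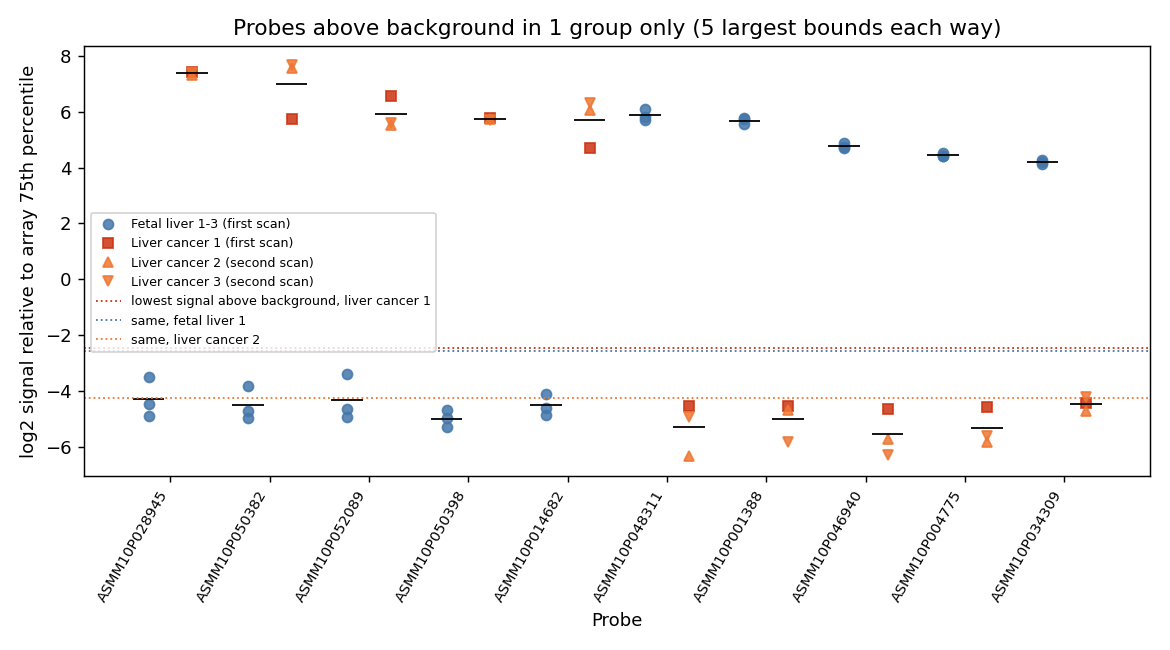
Log2 signal relative to the array's 75th percentile (vertical axis) on each array for 10 probes above background in 1 tissue only (horizontal axis). Symbols are as in the plot of named genes, lines are group means, and dotted lines are the lowest signals well above background on fetal liver 1, liver cancer 1 and liver cancer 2. Every bright array sits at 4.14 or above and every dim array at -3.39 or below.

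Of the 385 tested lincRNA-named probes, 20 were above background in liver cancer only, 12 human-named and 8 mouse-named. In fetal liver only there were 5 (3 and 2). Over all tested probes the shares were 3.78% and 1.82%. mouselincRNA1468-_P1 was at 1.84, 1.72 and 1.66 in the tumours, at least 24.0-fold higher (at least 25.7-fold on liver cancer 1). mouselincRNA1040+_P1 was uneven, at -1.63, 2.53 and 2.90, with bounds of 17.3-fold over the tumours and 2.31-fold on liver cancer 1. humanlincRNA1590+_P1 was at -0.27, 1.21 and 1.11, with bounds of 11.5-fold over the tumours and 5.93-fold on liver cancer 1. Next came mouselincRNA1235-_P1 and mouselincRNA1424+_P1, with bounds of 2.52-fold and 2.28-fold over the tumours, and all others were below 2-fold. The smallest was 0.82-fold at humanlincRNA1853+_P1, whose difference of 0.08 was not called. Also not called were mouselincRNA1424+_P1, mouselincRNA0665+_P1 and humanlincRNA0095-_P1. In fetal liver, humanlincRNA1963-_P1 was at -0.86, -0.72 and -0.996 and at least 6.49-fold higher. Against liver cancer 1 its bound was 3.00-fold. The other 4 fetal-only lincRNA probes had bounds of 2.33-fold to 3.50-fold, and of 1.08-fold to 1.62-fold against liver cancer 1, where 1 of the 4 was called.

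The liver cancer arrays of the 2 scans differed, and scan and tumour cannot be told apart in this difference. Its spread comes from the fetal arrays and the pair of the second scan, since liver cancer 1 is 1 array. Between liver cancer 2 and 3 and liver cancer 1, 6274 of 29729 probes (21.1%) were called by limma with the same rule, 2471 (8.31%) higher and 3803 (12.8%) lower in the pair. Over all probes the pair was lower by a median of 0.29. Among 379 lincRNA-named probes the pair was called higher for 32 and lower for 31. Liver cancer 1 was the highest tumour for 54.8% of all probes with 3 values. For probes called lower against fetal liver it was the highest, hence nearest to the fetal level, in 59.7% of cases and the lowest in 25.6%. For probes called higher it was the highest in 47.7% and the lowest in 41.3%. The median difference from fetal liver was 1.98, 1.99 and 2.02 on liver cancer 1, 2 and 3 for probes called higher, and -1.92, -2.20 and -2.13 for probes called lower.

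The gap between the tumours depended on level. In the dimmest of 10 classes of mean level the median difference from the fetal mean was -0.14, -0.54 and -0.38 on liver cancer 1, 2 and 3. In the brightest it was 0.34, -0.17 and -0.14.

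**Figure D5:**
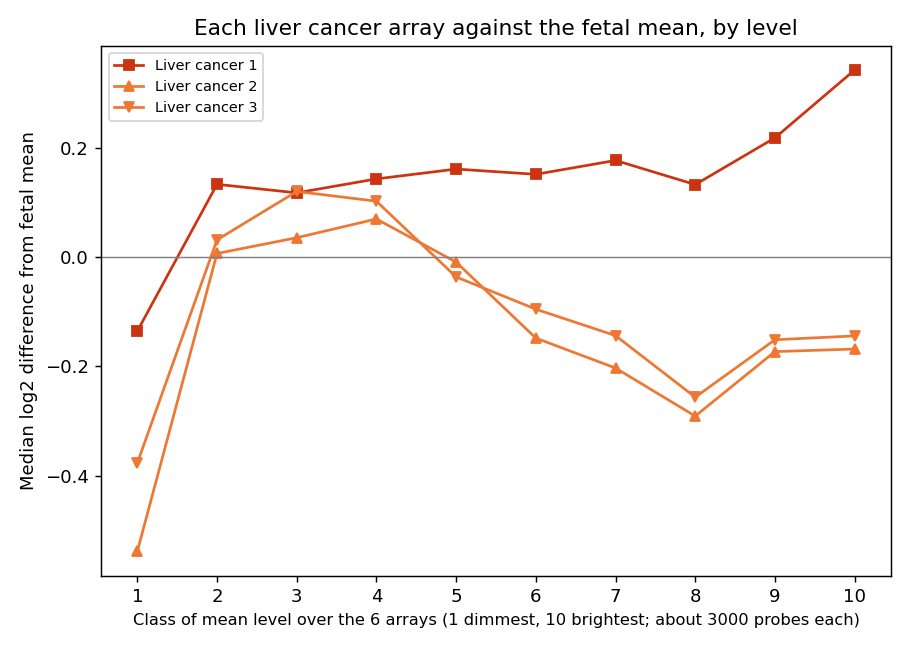
Median log2 difference from the fetal mean (vertical axis) for each liver cancer array in 10 classes of mean level over the 6 arrays (horizontal axis, 1 the dimmest and 10 the brightest). Liver cancer 1 (squares) reaches 0.34 in the brightest class, where liver cancer 2 and 3 (triangles) are at -0.17 and -0.14.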

How the data were processed

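Scanner output of 6 arrays was used, and that of all 9 arrays in 1 alternative fit. Agilent Feature Extraction 11.0.1.1 had made the authors' deposited intensity values, with background subtracted per spot, and the array design names mouse build mm9, per the file headers. Marks for spots well above background or outliers came from the same files. Control spots (1439) and 300 spots of 15 negative control probes were set aside. Spots not marked as outliers were averaged per probe as log2 processed signal, and each array's 75th percentile was subtracted. A probe with several spots counted as above background when no fewer of its spots were marked than unmarked. Groups were compared with limma 3.58.1 (in R 4.3.3 with the package data.table, version 1.17.8), 1 mean per group, with Benjamini-Hochberg adjustment over all tested probes, and control probes with exact permutation tests. The number of arrays limits precision. The script was tested on simulated data.

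All 15 probes with a gene accession are named, and in each of 4 classes (human-named, mouse-named and mm9 exon lincRNA probes, and the maker's identifiers, P and UP series together) the 5 highest and 5 lowest called probes with separate groups, above background on all 6 arrays, plus the 5 largest bounds each way. Members and lists were chosen with earlier results of these data known. Alternatives were other scalings, normexp (offset 50, on median signals because no mean signal was used here), filters, a signal floor, blocks, variance models, all 9 arrays, and leaving out each array. Promoter sequences came from RefSeq tables (GRCm38.p6), where all 4 genes shown matched. Probe sequences were not used here. Scripts in Python 3.11.15 (numpy 2.4.6, pandas 2.3.3, matplotlib 3.10.9) made motif counts and figures.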

Additional observations from a re-analysis of the deposited data

Results flagged for a closer look

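The control probe Rat-PGK1_3 gave a signal on liver cancer 2 and 3, the second-scan tumours, that no fetal array gave. It was at -2.28 on liver cancer 2 and -2.97 on liver cancer 3, where all 10 of its spots were well above background. The fetal arrays were at -3.95, -3.94 and -4.36 and liver cancer 1 at -3.93, where at most 1 of the 10 spots was. Of 83 control probes, 62 were dark on all fetal arrays. Of these 62, 16 were above background on liver cancer 2 and 18 on liver cancer 3, against 1 on liver cancer 1. Negative control spots carried the mark at 7% and 3.33% on liver cancer 2 and 3, against 0.333% on liver cancer 1. The cause was not tested.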

How the results depend on the processing

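The count of 13581 called probes stayed within 1.5 times under the other settings except the requirement of signal above background on all 6 arrays, with 8717 of 23175. It was 9740 with normexp, 13560 with quantile scaling, 13107 with array median scaling (5106 higher, 8001 lower), 12980 with scan as a block, 10497 tested against 1.5-fold, 12912 with a floor, 13892 with all 9 arrays and 14288 of 60559 without a filter. Leaving out 1 array gave 12044 to 15359, the highest without liver cancer 1. The 113 lincRNA-named calls became 52 with normexp and 63 above background on all 6 arrays, by construction for the latter, and 87 to 141 with 1 array left out. Array median scaling moved the median of all probes from -0.01 to -0.23. Taking liver cancer 1 alone, 5077 probes were above background in 1 tissue only, against 1687, and the balance turned, with 1223 in liver cancer only and 3854 in fetal liver only against 1139 and 548. The cause was not tested. With normexp 2846 probes differed between the tumours of the 2 scans, against 6274, and the cause was not tested.

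The uncalled differences of Ppia, Gapdh and Gusb reversed to 0.25, 0.23 and 0.24 with normexp, and to 0.24, 0.55 and 0.30 within the first scan or with a block for scan, where the difference rests on liver cancer 1. Gk, Ldhal6b, G6pd2, Nono, Hsp90ab1, Tbp and Tfrc kept their calls under all 19 settings run on them. The labels share only replicate numbers, and deviations of same-numbered arrays correlated at 0.17, 0.31 and -0.01. The replicate block called 13939 probes and 117 lincRNA-named ones and changed 0 of 60 named results. Dim probes limit the folds: for probes below background in a tissue they are bounds.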

Other observations

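The maker's identifiers are numbered, and large differences gathered in places along the numbers. Runs were sought after the values were seen, as 4 or more probes that changed at least 16-fold in 1 direction with numbers at most 5 apart. There were 12 such runs of higher probes, holding 51 of 803, and 9 of lower probes, holding 40 of 821. ASMM10P030588 to ASMM10P030597 held 6 higher probes with differences of 4.07 to 9.16. ASMM10P051160 to ASMM10P051167 held 4, from 6.62 to 11.10, and includes ASMM10P051166. On the lower side, ASMM10P051219 to ASMM10P051234 held 7, from -7.47 to -4.01. ASMM10P036629 to ASMM10P036634 held 5, from -10.57 to -4.81, and includes ASMM10P036632. Across probes, the differences of pairs whose numbers are 1 apart correlated at r = 0.20 (16060 pairs). At 2, 5 and 10 apart r was 0.11, 0.05 and 0.03, and at 100 and 1000 apart it was 0.01 and 0.03. Such probes share arrays, and the files do not say how the numbers were given, so the values are a description.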
